A study of Mus musculus with 14 samples.

Results

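The Cyp2a cytochromes are a subfamily of cytochrome P450 enzymes, haem proteins of the endoplasmic reticulum that oxidise steroids, drugs and dietary compounds with electrons delivered by P450 reductase. In mouse liver CYP2A5 is known as the coumarin hydroxylase and also takes part in nicotine and bilirubin oxidation, and CYP2A4, nearly identical in sequence, is known as a testosterone hydroxylase that female livers express more than male livers. CYP2A12 hydroxylates steroids and bile acids, and the function of CYP2A22 is less well described. Transcription of Cyp2a5 is known to depend on the liver factors HNF4-alpha and C/EBP and to respond to NRF2, the constitutive androstane receptor (CAR) and the aryl hydrocarbon receptor.

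The 4 members, Cyp2a4, Cyp2a5, Cyp2a12 and Cyp2a22, of 16111 genes with a symbol, were represented by 6 of the 41174 distinct probes of the array, and each probe was kept apart. The subfamily was chosen because its ratios over the 3 diets were already known to differ, so the differences between diets are given as a description. Calls of the members by adjusted p are also printed, but they are not read as tests of these differences. Liver RNA of 14 male C57BL/6 mice aged 1 year was hybridised to Agilent 44K arrays, 1 mouse per array. Of these, 4 mice ate a high-calorie version of the AIN-93G diet, with 60% of its calories from fat, to which 0.04% resveratrol had been added, 5 mice ate the same high-calorie diet without resveratrol, and 5 mice ate standard AIN-93G. The groups are called resveratrol, high-calorie and standard-diet mice. All mice were of 1 sex and strain, and the labels name them replicate animals without tying equal replicate numbers across diets. Each array carried the mouse in the Cy3 dye and, in Cy5, RNA pooled from 5 livers of mice on the standard diet, and a value is the log2 ratio of mouse to pool unless another scale is named.

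The probe sequences were not used here, and the upstream sequences of the 4 genes, from RefSeq on GRCm38.p6, show how alike the members are. The genes lie on chromosome 7, with Cyp2a4 at chr7:26307192-26315088, Cyp2a5 at chr7:26835339-26843264, Cyp2a22 at chr7:26931631-26939413 and Cyp2a12 at chr7:27029090-27036818. The 250 bases before each transcription start are printed 5′ to 3′ on the gene's own strand, with capitals marking a TATA box (TATAAA) in all 4 genes, and in Cyp2a4 and Cyp2a5 also an HNF4 core (CAAAGTCC) and a C/EBP motif (TTGCNNAA).
Cyp2a4 upstream, chr7:26306942-26307191, plus strand: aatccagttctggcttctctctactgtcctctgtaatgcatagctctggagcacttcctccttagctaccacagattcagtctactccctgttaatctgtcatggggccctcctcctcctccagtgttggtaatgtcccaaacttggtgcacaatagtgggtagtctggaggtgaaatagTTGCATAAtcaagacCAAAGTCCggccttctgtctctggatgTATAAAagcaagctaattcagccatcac
Cyp2a5 upstream, chr7:26835089-26835338, plus strand: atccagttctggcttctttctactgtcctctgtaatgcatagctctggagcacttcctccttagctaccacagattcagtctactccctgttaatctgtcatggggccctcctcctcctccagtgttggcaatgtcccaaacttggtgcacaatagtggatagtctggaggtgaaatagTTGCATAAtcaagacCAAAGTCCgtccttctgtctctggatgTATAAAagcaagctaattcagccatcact
Cyp2a12 upstream, chr7:27028840-27029089, plus strand: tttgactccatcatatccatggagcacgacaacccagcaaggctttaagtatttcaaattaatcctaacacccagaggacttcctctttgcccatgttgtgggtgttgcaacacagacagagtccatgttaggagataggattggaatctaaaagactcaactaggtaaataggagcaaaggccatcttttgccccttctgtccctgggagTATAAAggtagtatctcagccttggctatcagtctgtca
Cyp2a22 upstream, chr7:26939387-26939636, minus strand: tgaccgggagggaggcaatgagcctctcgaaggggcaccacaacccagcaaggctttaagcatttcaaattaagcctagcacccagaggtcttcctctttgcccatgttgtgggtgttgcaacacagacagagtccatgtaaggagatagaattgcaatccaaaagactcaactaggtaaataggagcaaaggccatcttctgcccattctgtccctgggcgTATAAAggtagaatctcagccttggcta

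The windows fall into 2 pairs. Cyp2a4 and Cyp2a5 were identical at 245 of 249 aligned bases (98.4%) and Cyp2a12 and Cyp2a22 at 215 of 234 (91.9%), whereas windows of different pairs were identical at 69.1% to 73.5% of aligned bases. The start used for Cyp2a22 lies a little inside the annotated end of that minus-strand gene. Motifs were searched on both strands, and no 2 matches overlapped. TATAAA occurs in 12.4% of all 32851 upstream windows of this length in the RefSeq table, CAAAGTCC in 1.2% and TTGCNNAA in 9.56%. The HNF4 core lies at -55 to -48 in Cyp2a4 and at -56 to -49 in Cyp2a5, and the C/EBP motif at -70 to -63 and -71 to -64, counted from the transcription start. An E-box (CACGTG), an antioxidant response element core (TGACNNNGC) and a STAT5 motif (TTCNNNGAA) had no match in these 4 windows and occur in 6.02%, 10.2% and 7.02% of all windows.

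Probe A_51_P377154 lists only a Cyp2a4 transcript. Probe A_52_P246255 is named Cyp2a5 but its accession list holds Cyp2a4 as well, probe A_52_P246252 is named Cyp2a5 by its description, and probe A_52_P9703 lists transcripts of both genes, so it is called the shared probe. A_51_P206736 belongs to Cyp2a12, and A_52_P95517 to Cyp2a22 through the gene ID in its description. Cross-hybridisation between Cyp2a4 and Cyp2a5 cannot be told apart from expression of both genes, and their probes are read together. All 6 probes, each present as 1 spot, were well above background in both dyes on 14 of 14 arrays, with 0 saturated and 0 flagged spots. All 6 therefore passed the filter on dim probes, which kept 37136 probes.

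Over the whole series, 77.9% to 92.4% of probes per array were well above background in the mouse channel, and the median net Cy3 signal was 79.4 ± 15.9 intensity units in resveratrol (SD, n = 4), 84.4 ± 20.8 in high-calorie (SD, n = 5) and 66.0 ± 13.6 in standard-diet mice (SD, n = 5). Of 8 hepatocyte markers 6 were on the array and tested, albumin and fibrinogen among them, and their summed Cy3 level was 87846 to 123765, 101320 to 115645 and 102813 to 132775 intensity units in the same groups, so hepatocyte RNA was abundant on every array. All 4 resveratrol arrays were extracted by the image software on day 1, as were 2 high-calorie and 3 standard-diet arrays, with the other 3 and 2 on day 2. The sorted slide numbers were divided at their largest gap into 2 series. This split always gives 2 series, and neither the labels nor the file headers name them. Series 1 held 3 resveratrol, 2 high-calorie and 0 standard-diet arrays, and series 2 held 1, 3 and 5. Resveratrol replicate 3 deviated from its group mean by 0.173 (root mean square over the tested probes, log2), against 0.114 to 0.118 in the other resveratrol mice, and standard-diet replicate 2 deviated by 0.186.

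High-calorie mice had 3.24-fold to 3.34-fold the Cyp2a4 and Cyp2a5 ratio of standard-diet mice on the 3 brighter probes, and smaller excesses of Cyp2a12 and Cyp2a22. The Cyp2a4 probe had log2 ratios of 0.77, 0.16, 0.46, 0.36 and 0.47 in high-calorie mice, against -1.14, -1.30, -1.45, -1.22 and -1.37 in standard-diet mice. Every high-calorie mouse stood more than 1 log2 unit above every standard-diet mouse, and the groups were far apart relative to the spread within them. The difference was 1.74 ± 0.28 (SE, 95% interval 1.14 to 2.33), or 3.34-fold, and it ranked as number 16 among all positive differences on the array.

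The probe named Cyp2a5 by its description, A_52_P246252, had ratios of 0.71, 0.15, 0.43, 0.36 and 0.42 in high-calorie mice, against -1.19, -1.11, -1.49, -1.26 and -1.37 in standard-diet mice. Mouse by mouse these values nearly repeat those of the Cyp2a4 probe. Its difference was 1.70 ± 0.28 (SE), or 3.24-fold. A_52_P246255, the other probe named Cyp2a5, averaged 0.60 ± 0.21 in high-calorie (SD, n = 5) and -1.09 ± 0.14 in standard-diet mice (SD, n = 5), and its difference was likewise 1.70 ± 0.28 (SE). The shared probe had ratios of 0.99, 0.62, 0.92, 0.94 and 0.80 in high-calorie mice, against -0.08, -0.60, -0.45, -0.32 and -0.34 in standard-diet mice. The groups did not overlap on it, but its difference of 1.21 ± 0.16 (SE) was smaller than on the other 3 probes.

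Cyp2a12 had ratios of 0.57, 0.59, 0.54, 0.55 and 0.40 in high-calorie mice, against 0.03, -0.06, 0.22, 0.32 and 0.02 in standard-diet mice. High-calorie mice lay close together and above all standard-diet mice, with a difference of 0.42 ± 0.09 (SE, 95% interval 0.23 to 0.62), or 1.34-fold. It was 0.71 after median centring and 0.25 with the Cy3 channel alone. In the deposited scores, which are on a different scale, it was 0.13. The Cyp2a12 call was lost with the Cy3 channel alone, with the scores and with array brightness as a covariate. Cyp2a22 had ratios of 0.68, 0.78, 0.57, 0.83 and 0.45 in high-calorie mice, against -0.06, -0.75, 0.32, 0.33 and 0.25 in standard-diet mice. The groups did not overlap, though standard-diet replicate 2 stood far below its group, and the difference was 0.64 ± 0.17 (SE, 95% interval 0.27 to 1.01), or 1.56-fold. With standard-diet replicate 2 left out the Cyp2a22 difference was 0.45. Without background correction it was 0.34, and that of the shared probe 0.80.

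**Figure D1:**
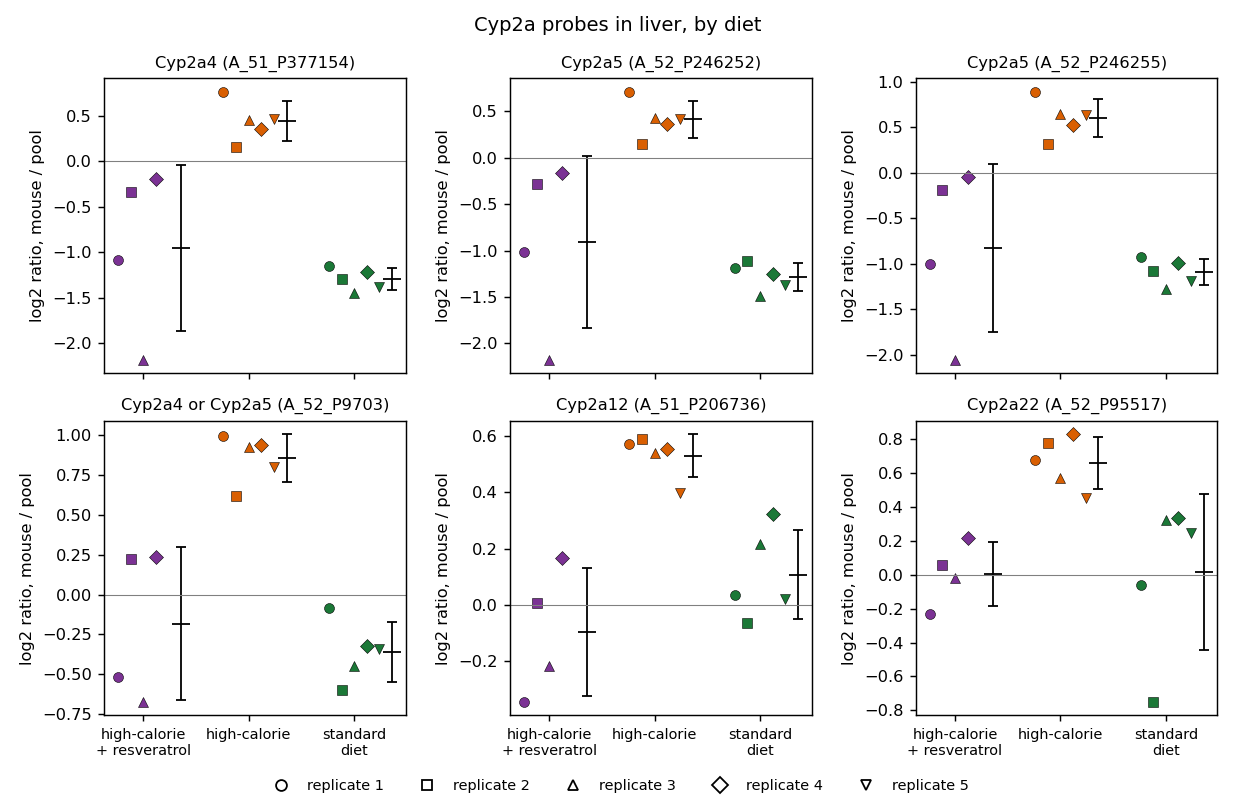
Log2 ratio of mouse to pool (y axis) for each of the 6 Cyp2a probes, 1 panel per probe, in resveratrol, high-calorie and standard-diet mice (x axis). Each point is 1 mouse with its replicate number as the symbol, and the black bar beside each group is the mean ± SD (n = 4, 5 and 5). High-calorie mice lie above both other groups on every probe, and the 4 resveratrol mice spread from -2.18 to -0.19 on the Cyp2a4 probe.

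All 6 Cyp2a probes met the call rule in the comparison of high-calorie with standard-diet mice, an adjusted p under 0.05 in limma with adjustment over all 37136 probes, and all 6 were higher. Over the whole array 9.04% of probes were called, 5.3% higher, and 10.1% of probes had groups that did not overlap. Since the members were chosen on this contrast, nothing is read from that count. The Cyp2a22 call was lost on leaving out standard-diet replicate 1 or any 1 high-calorie array. The split between higher and lower calls over the array moved with the scaling, with 58.7% of called probes higher here, 77.8% after median centring, 72.8% with the Cy3 channel alone and 80.7% with the deposited scores. The Cyp2a4 difference was 1.83 within extraction day 1, 1.70 within day 2 and 1.66 within slide series 2, and slide series 1 held no standard-diet array. Over the same 3 subsets the difference was 0.37, 0.53 and 0.40 for Cyp2a12 and 0.55, 0.85 and 0.58 for Cyp2a22. In bulk liver RNA, fewer cells of a type and less RNA per cell cannot be told apart, here and in what follows.

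The resveratrol mice carried less Cyp2a signal than the high-calorie mice on all 6 probes, and on the Cyp2a4 and Cyp2a5 probes they varied widely. The Cyp2a4 probe had ratios of -1.09, -0.34, -2.18 and -0.19 in resveratrol mice, against 0.77, 0.16, 0.46, 0.36 and 0.47 in high-calorie mice. The groups did not overlap, and within the resveratrol group replicates 2 and 4 were nearest to the high-calorie mice while replicate 3 was lowest, the group spanning 1.99. The difference was -1.39 ± 0.30 (SE, 95% interval -2.02 to -0.76), or 0.381-fold, and ranked as number 10 among all negative differences on the array.

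A_52_P246252 had ratios of -1.02, -0.28, -2.17 and -0.16 in resveratrol mice and averaged 0.41 ± 0.20 in high-calorie mice (SD, n = 5). A_52_P246255 had ratios of -1.0, -0.19, -2.05 and -0.05 in resveratrol mice and averaged 0.60 ± 0.21 in high-calorie mice (SD, n = 5). The order of the 4 resveratrol mice, replicate 4 highest and replicate 3 lowest, was the same on all 3 probes. The differences were -1.32 ± 0.30 (SE) and -1.43 ± 0.30 (SE), or 0.400-fold and 0.372-fold. The shared probe had ratios of -0.52, 0.22, -0.67 and 0.23 in resveratrol mice, against 0.99, 0.62, 0.92, 0.94 and 0.80 in high-calorie mice, and a difference of -1.04 ± 0.17 (SE).

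Cyp2a12 had ratios of -0.34, 0.01, -0.21 and 0.17 in resveratrol mice, against 0.57, 0.59, 0.54, 0.55 and 0.40 in high-calorie mice. Its lowest resveratrol mouse was replicate 1 rather than replicate 3, and the difference was -0.63 ± 0.10 (SE, 95% interval -0.84 to -0.42), or 0.648-fold. Cyp2a22 had ratios of -0.23, 0.06, -0.02 and 0.22 in resveratrol mice, against 0.68, 0.78, 0.57, 0.83 and 0.45 in high-calorie mice. The groups did not overlap, and the difference was -0.66 ± 0.18 (SE, 95% interval -1.05 to -0.26), or 0.634-fold.

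In this comparison 5 of the 6 Cyp2a probes met the call rule, all lower, and the Cyp2a22 probe did not. Over the whole array 4.91% of probes were called, 2.14% lower, and 12.6% had groups that did not overlap, and again nothing is read from the members' count. Of called probes over the array 56.3% were higher here, against 25.0% after median centring, 27.0% with the Cy3 channel alone and 35.8% with the deposited scores. The rule was met by 2 of the 6 with the extraction day or the slide series as a block. With the Cy3 channel alone it was met by 1. With the deposited scores, within extraction day 1 and within slide series 1 it was met by 0. Over the whole array 53, 65 and 0 probes were called in those settings, so few or no calls were possible there. Day 2 held no resveratrol array. The A_52_P246252 call was lost without high-calorie replicate 1 or 5. The Cyp2a22 probe met the rule without standard-diet replicate 2, without background correction, where its difference was -0.36, and among probes well above background on all arrays. Without resveratrol replicate 1 the rule was met by 2 Cyp2a probes, and without resveratrol replicate 3 the Cyp2a4 difference was -0.98. The Cyp2a4 difference was -1.51 within extraction day 1, which holds all resveratrol mice, and -1.47 with the day as a block. It was -1.71 within slide series 1 and -0.70 within slide series 2, where the resveratrol group is the lone replicate 2. Over the same 2 series the difference was -0.69 and -0.50 for Cyp2a12 and -0.76 and -0.55 for Cyp2a22.

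**Figure D2:**
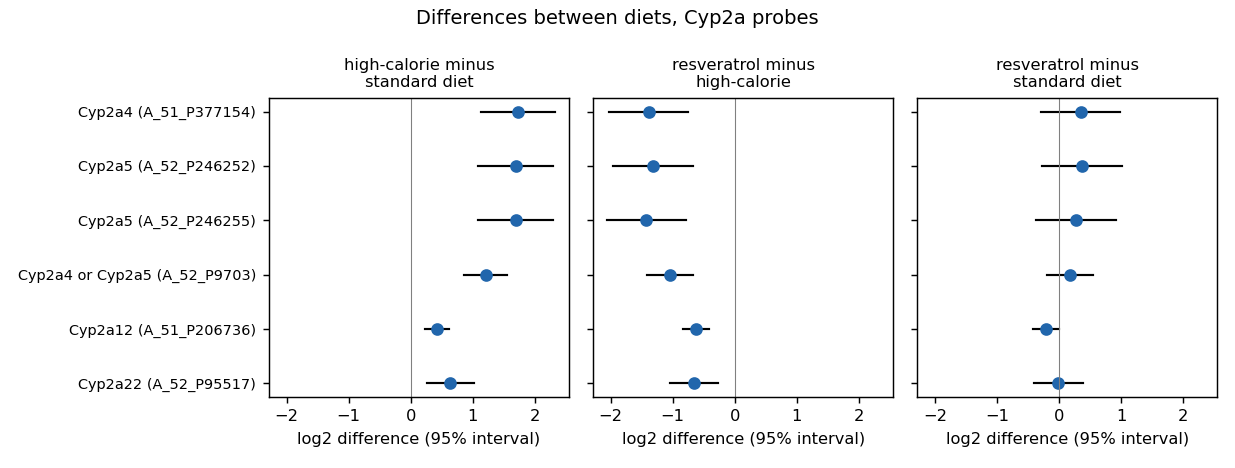
Log2 differences (x axis) of the 6 Cyp2a probes (y axis) with their 95% intervals in the 3 comparisons, 1 panel each. The high-calorie minus standard-diet differences lie between 0.42 and 1.74, the resveratrol minus high-calorie differences between -1.43 and -0.63, and all 6 intervals of resveratrol minus standard diet span 0.

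Between resveratrol and standard-diet mice the intervals of all 6 Cyp2a differences were wide and spanned 0. On the Cyp2a4 probe the ratios were -1.09, -0.34, -2.18 and -0.19 in resveratrol mice, against a range of -1.45 to -1.14 in standard-diet mice. Replicates 1, 2 and 4 lay above all standard-diet mice and replicate 3 below all of them, so the groups overlapped. The difference was 0.35 ± 0.30 (SE, 95% interval -0.28 to 0.98), and without resveratrol replicate 3 it was 0.76. The differences of the other 3 Cyp2a4 and Cyp2a5 probes were 0.37 ± 0.30 for A_52_P246252, 0.27 ± 0.30 for A_52_P246255 and 0.17 ± 0.17 for the shared probe (SE). Cyp2a12 differed by -0.20 ± 0.10 (SE, 95% interval -0.41 to 0.01) and Cyp2a22 by -0.01 ± 0.18 (SE, 95% interval -0.41 to 0.38). Of the 6 probes 0 met the call rule, all groups overlapped, and over the array 0.183% of probes were called and 2.98% had groups that did not overlap. Nothing is read from the members' count here either. Both comparisons with the high-calorie mice share those arrays, so their opposite signs are not independent.

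**Figure D3:**
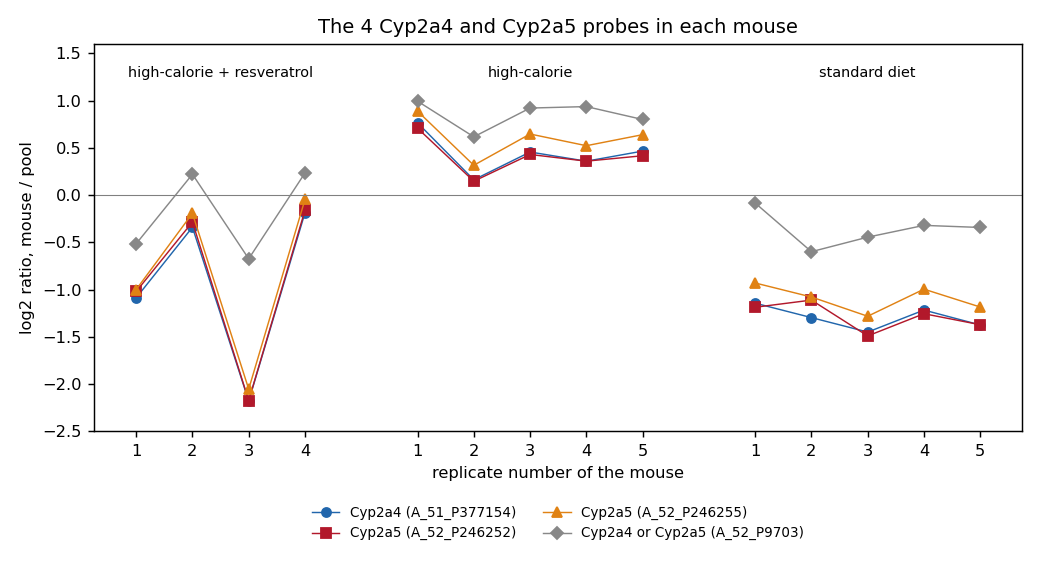
Log2 ratio of mouse to pool (y axis) of the 4 Cyp2a4 and Cyp2a5 probes in each mouse (x axis, replicate number within each diet). Lines join the mice of a diet only to show which points belong to 1 probe. The probes A_51_P377154, A_52_P246252 and A_52_P246255 nearly coincide, and the shared probe A_52_P9703 lies 0.23 to 1.5 above the Cyp2a4 probe.

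The 3 brighter Cyp2a4 and Cyp2a5 probes gave nearly 1 value per mouse. A_52_P246252 differed from the Cyp2a4 probe by -0.06 to 0.19 over 14 mice (median -0.01), and A_52_P246255 by 0.09 to 0.22 (median 0.17). The shared probe lay above the Cyp2a4 probe by 0.23 to 1.5 (median 0.58), and the gap of 1.5 belonged to resveratrol replicate 3. Within 1 mouse the 4 probes spread over 0.29 to 1.5, whereas their mean differed by 2.61 between the highest and the lowest mouse.

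Within diets, the Cyp2a4 and Cyp2a5 probes were among the most variable of the array. Their residual SD was 0.50 to 0.51 on the 3 brighter probes, at the 99.4 percentile of all tested probes, whose median was 0.0906. The SD of the Cyp2a4 probe was 0.91 in resveratrol mice (n = 4), 0.22 in high-calorie mice (n = 5) and 0.12 in standard-diet mice (n = 5), so the spread within the common model came mostly from the resveratrol group. The residual SD was 0.29 for the shared probe, 0.31 for Cyp2a22 and 0.159 for Cyp2a12.

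The channels were also read apart. The net Cy3 signal of the Cyp2a4 probe, before any scaling, was 628 to 3023 intensity units in resveratrol mice, 4350 to 9039 in high-calorie mice and 828 to 1609 in standard-diet mice. High-calorie mice stood above all others on this raw scale as well. That of Cyp2a12 was 758 to 1099 in resveratrol, 1054 to 2712 in high-calorie and 589 to 1184 in standard-diet mice, with overlap at the lower end. The pool signal in Cy5 averaged 13.24 ± 0.06 in resveratrol (SD, n = 4), 13.27 ± 0.09 in high-calorie (SD, n = 5) and 13.30 ± 0.03 in standard-diet arrays (SD, n = 5) on the Cyp2a4 probe, in log2 units after quantile normalisation. Over the 6 probes and 3 comparisons the pool differed by -0.15 to 0.37 between groups, the highest being the shared probe, whose pool was 0.37 higher on high-calorie than on standard-diet arrays. The pool signal is part of the ratio that chose the members, so these values are given with no test.

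**Figure D4:**
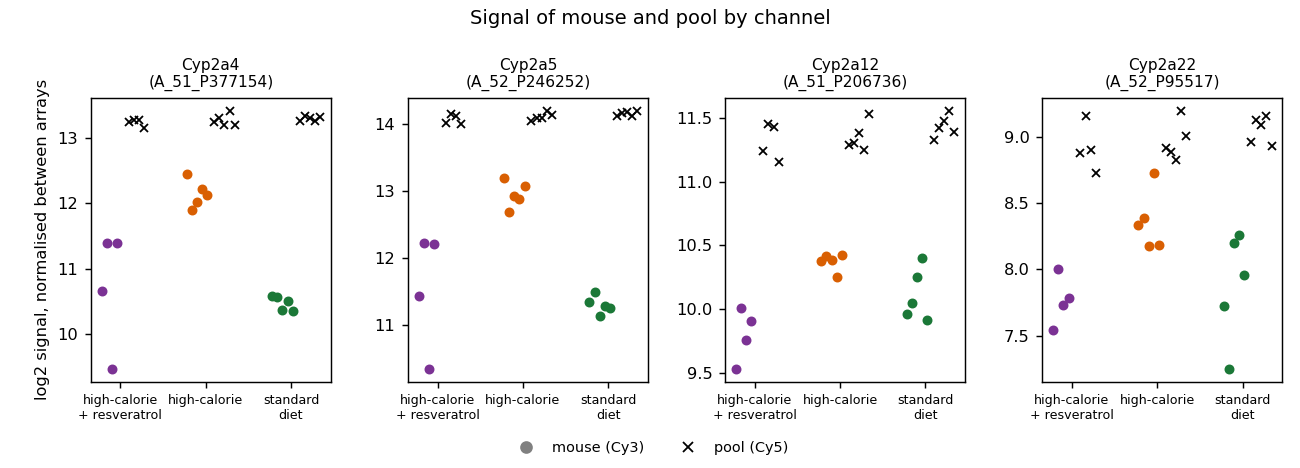
Log2 signal (y axis, normalised between arrays) of the brightest probe of each Cyp2a gene in the mouse channel (circles, Cy3) and the pool channel (crosses, Cy5) for resveratrol, high-calorie and standard-diet arrays (x axis). The pool of the Cyp2a4 probe averages 13.24, 13.27 and 13.30 in these groups, and the mouse channel 10.73, 12.14 and 10.48. Signals of the 2 dyes are on different scales.

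The standard-diet mice themselves were far below a pool of standard-diet livers on the Cyp2a4 and Cyp2a5 probes. Their mean ratio was -1.30 ± 0.12 on the Cyp2a4 probe (SD, n = 5), lower than on all but 0.124% of tested probes, and -1.28 ± 0.15 on A_52_P246252 (SD, n = 5). On Cyp2a12 it was 0.11 ± 0.16 (SD, n = 5) and on Cyp2a22 0.02 ± 0.46 (SD, n = 5). These levels depend on the scaling. After median centring the standard-diet mice ran from -2.62 to -1.94 on the Cyp2a4 probe, from -1.14 to -0.49 on Cyp2a12 and from -1.25 to -0.09 on Cyp2a22. There was no dye swap, so a dye effect of a probe and a real difference between the pooled livers and these mice cannot be told apart. An offset equal on all arrays would cancel in differences between diets, but whether it was equal was not tested.

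The genes whose ratios were most like those of each member over the 14 arrays were ranked by Pearson correlation among 19465 probes with a matched symbol. These are descriptions with no test, and the arrays share the pool and fall into 3 diet groups. Closest to Cyp2a4 were Siae (0.979), a sialic acid esterase, Ces2b (0.972), a carboxylesterase, Dlst (0.970), a subunit of 2-oxoglutarate dehydrogenase, Lgals1 (0.969), which encodes galectin, and Slc25a10 (0.964), the mitochondrial dicarboxylate carrier. The list of Cyp2a5 held the same genes except Dlst, with Slc47a1 (0.965), an organic cation exporter, in its place. Closest to Cyp2a12 were Fmo5 (0.946), a flavin monooxygenase, Iscu (0.943), an iron-sulphur cluster scaffold, Gsta1 (0.932), a glutathione transferase, Slc17a4 (0.925) and Abcb1b (0.923), a drug efflux pump. Closest to Cyp2a22 were Abhd17c (0.963), Ociad1 (0.954), Nudt1 (0.954), Htatip2 (0.953) and Itgb1 (0.951), an integrin subunit. After each diet's mean was removed, the correlations of these genes were lower, at 0.852 to 0.953 for Cyp2a4 and 0.853 to 0.951 for Cyp2a5. They were 0.689 to 0.919 for Cyp2a12 and 0.895 to 0.943 for Cyp2a22.

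Among the members, Cyp2a4 and Cyp2a5 had a correlation of 0.998 over the 14 arrays and 0.992 after each diet's mean was removed. For Cyp2a12 and Cyp2a22 the values were 0.853 and 0.704. Cyp2a4 and Cyp2a12 had 0.787 and 0.494, and Cyp2a4 and Cyp2a22 had 0.670 and 0.093. The 2 pairs most alike in their upstream windows also had the highest correlations between mice, and a link between sequence and correlation was not tested. Cross-hybridisation between near-identical transcripts was not tested.

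The Cyp2a genes share their cluster on chromosome 7 with Cyp2b, Cyp2f, Cyp2g, Cyp2s and other P450 genes. Of 9 listed cluster neighbours 8 were tested. Between high-calorie and standard-diet mice 3 rose, 0 fell and 5 did not pass, with a median log2 difference of 0.06. Over all probes 5.3% were called higher and 3.73% lower, with a median of -0.00077, and between resveratrol and high-calorie mice 2.77% were called higher and 2.14% lower, with a median of -0.0081. Cyp2b9, a P450 that female livers express more than male livers, rose by 3.25 ± 0.33 (SE, limma adjusted p = 0.000109), Cyp2b13, also female-biased, by 1.39 ± 0.12 (adjusted p = 3.77e-05), and Cyp2b10, the classical CAR target, by 0.54 ± 0.05 (adjusted p = 2.62e-05). The same 3 genes fell between resveratrol and high-calorie mice, with differences of -2.44 ± 0.35 for Cyp2b9 (SE, limma adjusted p = 0.00412), -1.23 ± 0.13 for Cyp2b13 (adjusted p = 0.000923) and -0.43 ± 0.05 for Cyp2b10 (adjusted p = 0.00127), 0 rose and 5 did not pass. With the Cy3 channel alone the calls of Cyp2b9 (adjusted p = 0.114) and Cyp2b10 (adjusted p = 0.123) in this comparison were lost, that of Cyp2b10 also with the deposited scores. Without background correction the differences were -1.53 for Cyp2b9 and -0.19 for Cyp2b10, and 1.70 and 0.23 between high-calorie and standard-diet mice. Between resveratrol and standard-diet mice 0 of 8 passed. Without standard-diet replicate 5 the neighbours that passed between high-calorie and standard-diet mice numbered 5.

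Of 13 known regulators of Cyp2a5, 3 rose, 2 fell and 8 did not pass between high-calorie and standard-diet mice, with a median of 0.11. Nfe2l2, which encodes NRF2, rose by 0.76 ± 0.15 (SE, limma adjusted p = 0.00650) and Ahr, the aryl hydrocarbon receptor, by 0.57 ± 0.12 (adjusted p = 0.00890). Nr1i3, which encodes CAR, rose by 0.42 ± 0.11 (adjusted p = 0.0369), and Arnt, the AHR partner, fell by 0.20 ± 0.05 (adjusted p = 0.0323), each call being lost on leaving out any 1 of 8 arrays, which were the 5 high-calorie arrays with standard-diet replicates 1, 3 and 4 for Nr1i3 and 2, 3 and 4 for Arnt. Hnf4a fell by 0.15 ± 0.04 (adjusted p = 0.0428), a call lost without any 1 of 9 arrays (standard-diet replicates 1 to 4, high-calorie replicates 1, 4 and 5 and resveratrol replicates 1 and 2), and its difference was above 0 after median centring, with the Cy3 channel alone and with the deposited scores. Leaving out any 1 of standard-diet replicates 1 to 4 or any 1 high-calorie replicate left 2 or 3 of the 5 regulators called.

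Between resveratrol and high-calorie mice 1 regulator rose, 1 fell and 11 did not pass, with a median of -0.09. Nfe2l2 fell by 0.73 ± 0.15 (SE, limma adjusted p = 0.0184) and Arnt rose by 0.27 ± 0.06 (adjusted p = 0.0173), both calls being lost without resveratrol replicate 1. Nr1i3 differed by -0.29 ± 0.12 (SE, adjusted p = 0.177) and Ahr by -0.09 ± 0.12 (SE, adjusted p = 0.725), and neither passed. Between resveratrol and standard-diet mice 0 of 13 passed.

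**Figure D5:**
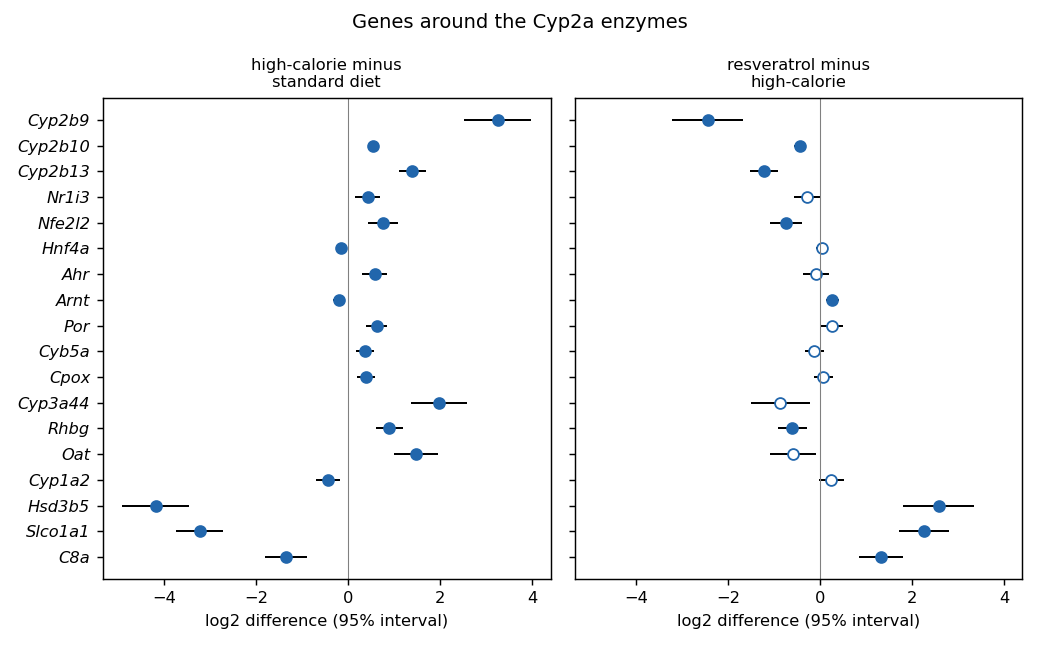
Log2 differences (x axis) with 95% intervals for genes around the Cyp2a enzymes (y axis), for high-calorie minus standard-diet and resveratrol minus high-calorie mice. Filled points passed at an adjusted p under 0.05 in limma and open points did not. Cyp2b9 lies at 3.25 and -2.44, Hsd3b5 at -4.19 and 2.58, and Por at 0.62 and 0.25.

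P450 enzymes depend on electron donors and on haem. Of 14 genes of these functions 3 rose, 1 fell and 10 did not pass between high-calorie and standard-diet mice, with a median of 0.21. Por, the P450 reductase, rose by 0.62 ± 0.10 (SE, limma adjusted p = 0.00199), Cpox, a haem synthesis enzyme, by 0.38 ± 0.08 (adjusted p = 0.0144) and Cyb5a, cytochrome b5, by 0.37 ± 0.08 (adjusted p = 0.0157). Urod, another haem synthesis enzyme, was the gene that fell, with a difference of -0.30. Between resveratrol and high-calorie mice 0 of 14 passed, and Por differed by 0.25 ± 0.10 (SE, adjusted p = 0.173), although 1 gene passed without standard-diet replicate 2 or without resveratrol replicate 2. Por was also the 1 gene of the list that passed between resveratrol and standard-diet mice, where it rose by 0.87 ± 0.10 (adjusted p = 0.00349), and 2 genes passed there without standard-diet replicate 5 or without resveratrol replicate 3.

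Genes with a known sex bias in mouse liver were set beside the Cyp2a genes because Cyp2a4 has one. Of 15 listed female-biased genes 12 were tested, Cyp2b9 and Cyp2b13 among them, and 7 rose, 0 fell and 5 did not pass between high-calorie and standard-diet mice, with a median of 0.48. Cyp3a44 rose by 1.98 ± 0.27 (SE, limma adjusted p = 0.000780), and Cyp3a16 and Cyp3a41a, near-identical genes that its probe may not tell apart, by 2.00 and 1.72. Between resveratrol and high-calorie mice 0 rose, 3 fell and 9 did not pass, with a median of -0.30, and Cyp3a44 differed by -0.87 ± 0.29 (SE, adjusted p = 0.101). Of 14 listed male-biased genes 11 were tested, and 0 rose, 10 fell and 1 did not pass in high-calorie against standard-diet mice, with a median of -1.27. Hsd3b5, a steroid dehydrogenase, fell by 4.19 ± 0.33 (SE, adjusted p = 1.85e-05). Slco1a1, an organic anion transporter, fell by 3.23 ± 0.23 (adjusted p = 9.01e-06), and C8a, a complement component, fell by 1.36 ± 0.20 (adjusted p = 0.00127). Between resveratrol and high-calorie mice 6 rose, 0 fell and 5 did not pass, with a median of 1.21, and Hsd3b5 rose by 2.58 ± 0.35 (adjusted p = 0.00348), Slco1a1 by 2.27 ± 0.24 (adjusted p = 0.000923) and C8a by 1.33 ± 0.22 (adjusted p = 0.00714). Between resveratrol and standard-diet mice 0 of the 12 and 0 of the 11 genes passed. Without resveratrol replicate 3 these counts were 3 and 1, and for male-biased genes 2 passed without standard-diet replicate 5 and 1 without resveratrol replicate 1.

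CYP2A enzymes sit mainly in hepatocytes around the central vein, and 9 other pericentral genes were examined. Of these 4 rose, 1 fell and 4 did not pass between high-calorie and standard-diet mice, with a median of 0.29. Oat, ornithine aminotransferase, rose by 1.47 ± 0.21 (SE, limma adjusted p = 0.00109) and Rhbg, an ammonium transporter, by 0.89 ± 0.13 (adjusted p = 0.00104). Cyp1a2, the pericentral P450 of caffeine metabolism, fell by 0.44 ± 0.11 (adjusted p = 0.0256), a call lost on leaving out any 1 of standard-diet replicates 1, 3 and 4 and high-calorie replicates 2 and 5. Between resveratrol and high-calorie mice Rhbg fell by 0.61 ± 0.14 (adjusted p = 0.0236), a call lost on leaving out any 1 of high-calorie replicates 1 and 5 and resveratrol replicates 1 and 2, and 8 genes did not pass. Without standard-diet replicate 3 or 4 or high-calorie replicate 5 the 5 pericentral calls between high-calorie and standard-diet mice became 2, and without high-calorie replicate 1 they became 3. Between resveratrol and standard-diet mice 0 of 9 passed, and 1 passed without resveratrol replicate 3.

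Markers of other liver cells also differed between mice. The summed Cy3 level of 8 Kupffer cell markers was 4220 and 3816 intensity units in resveratrol replicates 3 and 4 and 1800 to 1960 in the other resveratrol mice, against 2203 to 2680 in high-calorie and 1899 to 2227 in standard-diet mice. Replicates 3 and 4 had the lowest and the highest Cyp2a4 ratio of their group. Of these 8 Kupffer cell genes 0 passed between high-calorie and standard-diet mice, where they went both ways, with Cd5l at 0.86 and Marco at -0.40. Between resveratrol and high-calorie mice only Csf1r passed, higher by 0.28, and 7 did not pass. Of 5 cholangiocyte markers the sum was 986 to 1983 in resveratrol, 1296 to 1553 in high-calorie and 950 to 1180 in standard-diet mice. Only Spp1, the brightest of the 5, passed as higher in high-calorie than in standard-diet mice, by 0.76. Krt19 (0.01), Sox9 (0.01), Epcam (-0.05) and Krt7 (-0.15) did not pass there. The sums of 5 adipocyte markers were 954 to 1513, 792 to 1375 and 670 to 803 in that order of groups. Of these 5, only Cfd, which encodes adipsin, rose between high-calorie and standard-diet mice (2.52), Retn fell (-0.20), and Adipoq (-0.09), Plin1 (-0.08) and Lep (0.11) did not pass. The sums of 5 stellate and 5 endothelial markers overlapped among all diets, although 3 of the stellate genes, Col1a1, Col3a1 and Lrat, rose between high-calorie and standard-diet mice. Of the endothelial genes Pecam1 also rose there, by 0.22, and 4 did not pass. Of the hepatocyte markers Apoa1 and Apoc3 fell between high-calorie and standard-diet mice, with differences of -0.64 and -0.29. Between resveratrol and high-calorie mice 2 stellate markers fell, 1 Kupffer cell and 1 adipocyte marker rose, and no other marker passed. Between resveratrol and standard-diet mice 1 adipocyte marker rose, 1 hepatocyte marker fell and no other marker passed. The part of these cell types in the Cyp2a differences was not tested.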

How the data were processed

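Per the labels' protocols, total RNA was purified on Qiagen columns and amplified linearly, with Cy3 for the mouse and Cy5 for the pool. Scanner output was deposited as made by Agilent Feature Extraction 7.5.1, per the file headers, and holds the intensity of each spot and its local background in both channels. The authors also deposited a value table in a unit recorded as score, and how they made it is not stated. Values in log2 units were computed from the deposited intensities.

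Spot signals were corrected with normexp (offset 50), and log2 ratios were normalised by loess within arrays, with 2256 control spots at weight 0 and 576 flagged spots left out. Probes whose Cy3 signal was well above background on 4 or more arrays were fitted in limma 3.58.1 (R 4.3.3) with the 3 diets as groups, empirical Bayes variances and Benjamini-Hochberg adjustment, and called at an adjusted p under 0.05. The fit was tested on simulated ratios. Of 41174 probes 21046 matched 1 gene symbol, 72 several and 20056 none. A list's gene was represented by its brightest probe. Channel levels used quantile normalisation between arrays.

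The members, gene lists and tests were chosen with earlier results of these data known, and the use of slide series was added after seeing the data. Each list contributed at most 3 called genes with the smallest adjusted p, beside Nr1i3, Nfe2l2, Hnf4a, Por, Cyp2b9 and Cyp2b10, and the 5 most alike genes per member. Urod, Cyp3a16, Cyp3a41a, Spp1, Krt19, Sox9, Epcam, Krt7, Col1a1, Col3a1, Lrat, Apoa1 and Apoc3 were named after their values were seen. The same holds for Cfd, Retn, Adipoq, Plin1, Lep, Pecam1, Cd5l, Marco and Csf1r. Promoter windows were aligned with Biopython 1.88. Alternatives covered background correction, median centring, the Cy3 channel alone, the scores, filters, saturated spots, probes per gene, the replicate block, the extraction day, array brightness and leaving out each array. The number of arrays limits the precision, and p-values measure the spread between these mice.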

Additional observations from a re-analysis of the deposited data

Results flagged for a closer look

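The Cyp2a12 ratio of high-calorie replicate 5 was 0.40, against 0.54 to 0.59 in the other high-calorie mice. Its gap to the nearest mouse was 0.728 of the group's whole range, above Dixon's critical value of 0.71 for 5 samples. In all, 18 groups of Cyp2a ratios were examined in this way, and chance alone marks about 1 in 20. On the Cyp2a4 probe the same mouse had 0.47, within the range of its group.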

How the results depend on the processing

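The direction of the Cyp2a differences was the same as reported in 180 of 180 values over 30 alternatives for high-calorie minus standard diet and in 180 of 180 for resveratrol minus high-calorie, and in 167 of 174 for resveratrol minus standard diet. In both comparisons with the high-calorie mice no groups overlapped, so leaving out arrays or taking a subset could not change the direction. The members were also chosen on these ratios, and nothing is read from these counts of directions. The number of Cyp2a probes meeting the call rule between high-calorie and standard-diet mice was 6, was 4 to 6 under the 13 alternatives that kept all arrays, 5 to 6 on leaving out 1 array, and 1 within extraction day 1. Between resveratrol and high-calorie mice it was 5 and ranged from 0 to 6 under the 13 alternatives. It was 6 both without background correction and among probes well above background on all arrays. It was 1 with the Cy3 channel alone and 0 with the deposited scores. With the replicate, the extraction day or the slide series as a block it was 2. Within day 1 and within slide series 1 it was 0, where 65 and 0 probes of the whole array were called. On leaving out 1 array it was 2 to 6, the 2 being without resveratrol replicate 1. Between resveratrol and standard-diet mice it was 0, was 0 to 0 on leaving out 1 array, and was 2 within slide series 2, where resveratrol replicate 2 is alone and is assumed to vary like the other groups. Fewer arrays entered the subsets, and the cause of the other changes was not tested. The Hnf4a difference between high-calorie and standard-diet mice was -0.15, but 0.0023 after median centring and 0.11 with the Cy3 channel alone. In the scores, which are on a different scale, it was 0.050, and the cause of the change in sign was not tested.

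Equal replicate numbers were not taken to pair the mice, because the correlations of deviations from the group means did not all exceed 0.1: over 13 pairs with the same number they ran from -0.19 to 0.31 (median -0.057, against -0.0040 over other pairs), although 7 of 14 arrays correlated best with their own number. With the replicate block the calls over the array were 3171, 437 and 51 in the order high-calorie minus standard diet, resveratrol minus high-calorie and resveratrol minus standard diet, against 3357, 1823 and 68 without it. In that order they ranged from 481 to 3869, from 53 to 2878 and from 4 to 70 under the 13 alternatives, and from 1505 to 6544, from 370 to 2793 and from 20 to 239 on leaving out 1 array. Within extraction day 1 they were 931, 65 and 62. For high-calorie minus standard diet they were 902 within slide series 2, and for resveratrol minus high-calorie they were 0 within slide series 1. The calls of the lists under the 13 alternatives between high-calorie and standard-diet mice were 2 to 3 neighbours, 1 to 5 regulators, 0 to 4 redox and haem genes, 4 to 7 female-biased, 7 to 10 male-biased and 2 to 6 pericentral genes, and between resveratrol and high-calorie mice 1 to 3, 0 to 2, 0 to 0, 1 to 3, 3 to 7 and 0 to 1. All 6 Cyp2a probes were well above background in both dyes, but the dimmer Cyp2a22 and shared probes moved with the background correction. The Cyp2a4 intervals rest on 1 residual SD of 0.50 shared by the 3 diets, whereas the SD was 0.91 in the 4 resveratrol mice. With such unequal spread, intervals that involve resveratrol mice can be too narrow and that of high-calorie minus standard diet too wide.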
